A study of Mus musculus with 12 samples.

Results

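Transcripts of the blood oxygen carrier hemoglobin were followed through 12 RNA-seq libraries of mouse hippocampus, where they can serve as a measure of the blood carried in each piece of tissue. The genes were chosen by symbol: the α-globin copies Hba-a1 and Hba-a2, the β-globin copies Hbb-bs and Hbb-bt, and Alas2, the erythroid enzyme that starts heme synthesis. Those 5 symbols matched 5 of the 46078 gene IDs, and all 5 passed the filter on low values that left 17496 genes for testing. The mice were C57BL/6 animals at postnatal day 25. They formed 4 groups of 3 libraries: males heterozygous for a frameshift allele of the chromatin remodeler gene Chd8 (Asn2373LysfsX2), wild-type males, heterozygous females, and wild-type females. Heterozygous animals are called mutants here. Nothing in the labels ties each library to an animal of its own. A p-value therefore reflects variation among the libraries sequenced, some of which may be technical. The tissue of each library is hippocampus by label.

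Hemoglobin is a tetramer of α-globin and β-globin chains, each holding a heme. Developing red cells make globin mRNA and heme in large amounts, and young red cells that have lost their nucleus (reticulocytes) still carry globin mRNA and Alas2 mRNA into the blood stream. In other cells the housekeeping enzyme Alas1 takes the place of Alas2. Bulk brain RNA usually holds some globin mRNA from blood left in the vessels, and low levels have also been described in some neurons of mouse and human. In bulk tissue, fewer cells of a type and less RNA per cell cannot be told apart.

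The globin copies of a pair lie close to each other on 1 chromosome and share most of their sequence, which bears on how far a read can be given to either copy. On GRCm38 (GENCODE M21), Hba-a1 occupies chr11:32283511-32284465 and Hba-a2 chr11:32296489-32297298, both on the plus strand. Hbb-bs occupies chr7:103826534-103828096 and Hbb-bt chr7:103812524-103813996, both on the minus strand. Alas2 lies alone on the X chromosome, at chrX:150547375-150570638 on the plus strand. Each globin gene had 3 exons in its longest coding transcript, and Alas2 had 11. The coding sequences of both α copies are 429 bases long, those of both β copies 444 bases, and that of Alas2 1764 bases. Counted from 1 at the A of the start codon, Hba-a1 and Hba-a2 differ at a single coding base (C381T) and so do Hbb-bs and Hbb-bt (C417T), which leaves an identity of 99.8% in each pair. The stretches around those bases are shown because these are the bases by which a coding read could tell the copies apart. They are coding bases 351 to 410 of the α genes and 385 to 444 of the β genes in the GENCODE M21 transcripts, and the capital marks the base that differs.
Hba-a1: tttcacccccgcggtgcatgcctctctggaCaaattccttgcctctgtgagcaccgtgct
Hba-a2: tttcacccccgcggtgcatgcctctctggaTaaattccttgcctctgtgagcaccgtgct
Hbb-bs: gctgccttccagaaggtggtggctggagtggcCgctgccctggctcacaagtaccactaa
Hbb-bt: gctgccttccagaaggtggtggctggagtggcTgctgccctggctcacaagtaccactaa
Over the whole transcript, including its untranslated ends, 439 of the 650 windows of 50 bases in Hba-a1 (67.5%) also occur in Hba-a2, and the same 439 windows are 86.9% of the 505 in Hba-a2. In the β pair, 381 windows are shared, 65.8% of the 579 in Hbb-bs and 58.3% of the 654 in Hbb-bt. In each of the 4 pairings of an α with a β transcript, 0 such windows are shared. The sources used here do not say how reads matching both copies were counted. The level of a single copy is therefore uncertain, while the sum of a pair and Alas2 do not depend on how shared reads were split, as long as none were discarded.

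Because the members varied together across the libraries, the stretch just before each start site is shown as well, from RefSeq (GRCm38.p6). Each line gives the 100 bases upstream of the RefSeq start on the strand of the gene. GENCODE M21 starts each of these genes further upstream than RefSeq does. Capitals mark 4 motifs, each searched on both strands. The first is CACCC, bound by erythroid Krüppel-like factor in known globin promoters. The second is CCAAT and the third, the TATA box, is TATAA. The last is a GATA word, the letters GATA with A or T before them and A or G after them, as erythroid GATA factors bind.
Hba-a2 (chr11:32296392-32296491): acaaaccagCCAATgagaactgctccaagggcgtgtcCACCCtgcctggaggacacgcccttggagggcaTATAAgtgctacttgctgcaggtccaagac
Hbb-bs (chr7:103827929-103828028): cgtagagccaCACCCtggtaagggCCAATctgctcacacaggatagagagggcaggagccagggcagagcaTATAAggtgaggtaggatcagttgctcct
Hbb-bt (chr7:103813924-103814023): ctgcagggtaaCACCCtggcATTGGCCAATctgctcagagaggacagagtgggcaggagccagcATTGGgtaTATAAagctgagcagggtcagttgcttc
Alas2 (chrX:150547317-150547416): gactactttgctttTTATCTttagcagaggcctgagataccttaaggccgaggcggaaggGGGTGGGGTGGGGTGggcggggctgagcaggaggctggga
The α copies were identical over 247 of 247 aligned bases before their starts, shifted by 3 bases, so only Hba-a2 is printed. The β copies, compared at their best single shift without gaps, matched at 127 of 249 bases (51.0%). An inserted or missing base would lower that value, and the stretch compared reaches further upstream than the 100 bases printed. TATAA begins 27 to 30 bases before the start in the 4 globin genes, and is not in the Alas2 window. CACCC or its reverse is in all 5 windows, as in 27.2% of the 32851 RefSeq windows of 100 bases. CCAAT or its reverse is in the 4 globin windows and in 18.9% of all windows, and TATAA is in 10.2% of them. A GATA word is in the Alas2 window alone among the 5, 86 bases before the start, and in 10.4% of all windows. Such matches are descriptions of the letters and not evidence of binding.

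Depth was 23721482 to 24654408 reads in the mutant libraries and 26912998 to 33327314 in the wild-type libraries, so depth cannot be told apart from genotype. Values are normalized counts, which are reads divided by 1 size factor per library. Chd8 itself, the mutated gene, had 2383 to 2508 normalized counts in mutant males, 2751 to 2994 in wild-type males, 2426 to 2513 in mutant females and 2845 to 2893 in wild-type females, and was lower in mutants averaged over both sexes (log2 difference -0.22, limma adjusted p = 0.0289). It was the only gene called in that comparison. The call was lost with no filter on low values (limma adjusted p = 0.0538), with upper-quartile factors (0.0672) and with a block for replicate number (0.131). It was also lost when any 1 of 10 of the 12 libraries was left out (the exceptions are mutant male 3 and wild-type male 1). The difference stayed between -0.24 and -0.21 without any 1 library. The 9 markers of hippocampal neurons were detected in every library, with summed normalized counts from 73009 to 81796, and 0 of them passed in any comparison. The most abundant were Slc17a7 (a vesicular glutamate transporter), Zbtb20, Neurod6 and Prox1. Choroid plexus, the secretory tissue of the ventricle next to the hippocampus, was uneven. The summed normalized counts of its 12 markers were 6461 in mutant male 2, 7306 in mutant male 3 and 7150 in wild-type female 1, against 77907 to 260690 in the other 9 libraries.

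Globin transcripts were detected in every library. The 4 globin genes together gave 67.3, 60.9 and 61.5 RPM (reads per 1000000 library reads) in mutant males, 83.5, 51.4 and 87.8 in wild-type males, 63.4, 49.6 and 45.0 in mutant females, and 37.6, 29.3 and 26.5 in wild-type females. All 3 wild-type female libraries lay below every other library, and wild-type male 2 lay well below the other wild-type males. Group means were 63.3 ± 3.56 in mutant males, 74.2 ± 19.9 in wild-type males, 52.7 ± 9.61 in mutant females and 31.1 ± 5.77 in wild-type females (SD, n = 3 each).

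Hba-a1, 1 of the α-chain genes, had normalized counts of 463, 444 and 415 in the mutant males, 529, 312 and 552 in wild-type males, 398, 327 and 298 in mutant females, and 239.7, 195 and 168 in wild-type females. Every mutant female library was above every wild-type female library, and the mutant males lay inside the range of the wild-type males. Its means were 441 ± 24.2, 464 ± 132, 341 ± 51.9 and 201 ± 36.4 in those 4 groups (SD, n = 3 each). For Hba-a2, the second α-chain gene, the normalized counts were 301, 315 and 297 in the mutant males, 361, 213 and 392 in wild-type males, 325, 239.9 and 217 in mutant females, and 189.7, 145 and 119 in wild-type females. The order of the groups and the gap below the mutant females were as for Hba-a1, its near-identical copy.

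Hbb-bs, the β-chain gene with the larger share of reads, reached 857, 728 and 756 normalized counts in mutant males, 1103, 668 and 1146 in wild-type males, 813, 621 and 568 in mutant females, and 487, 372 and 368 in wild-type females. The wild-type females were again lowest and did not overlap with any other group. Hbb-bt, its partner, gave 179, 152 and 179 in the mutant males, 229, 179 and 271 in wild-type males, 176, 136 and 129 in mutant females, and 109, 85.3 and 55.6 in wild-type females. Of the 5 genes it spanned the widest range, with the highest library at 4.88 times the lowest, against 2.87 to 3.30 times for the others.

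Alas2, which catalyses the first and rate-limiting step of heme synthesis in red cells, was much lower. Its normalized counts were 84.0, 72.6 and 66.3 in the mutant males, 88.0, 62.6 and 107 in wild-type males, 81.3, 49.9 and 55.4 in mutant females, and 56.3, 46.7 and 37.3 in wild-type females. Here mutant and wild-type females overlapped, while both male groups lay above the wild-type females. Behind these values stood 45 to 133 Alas2 reads a library, against 856 to 2926 for the 4 globin genes.

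**Figure D1:**
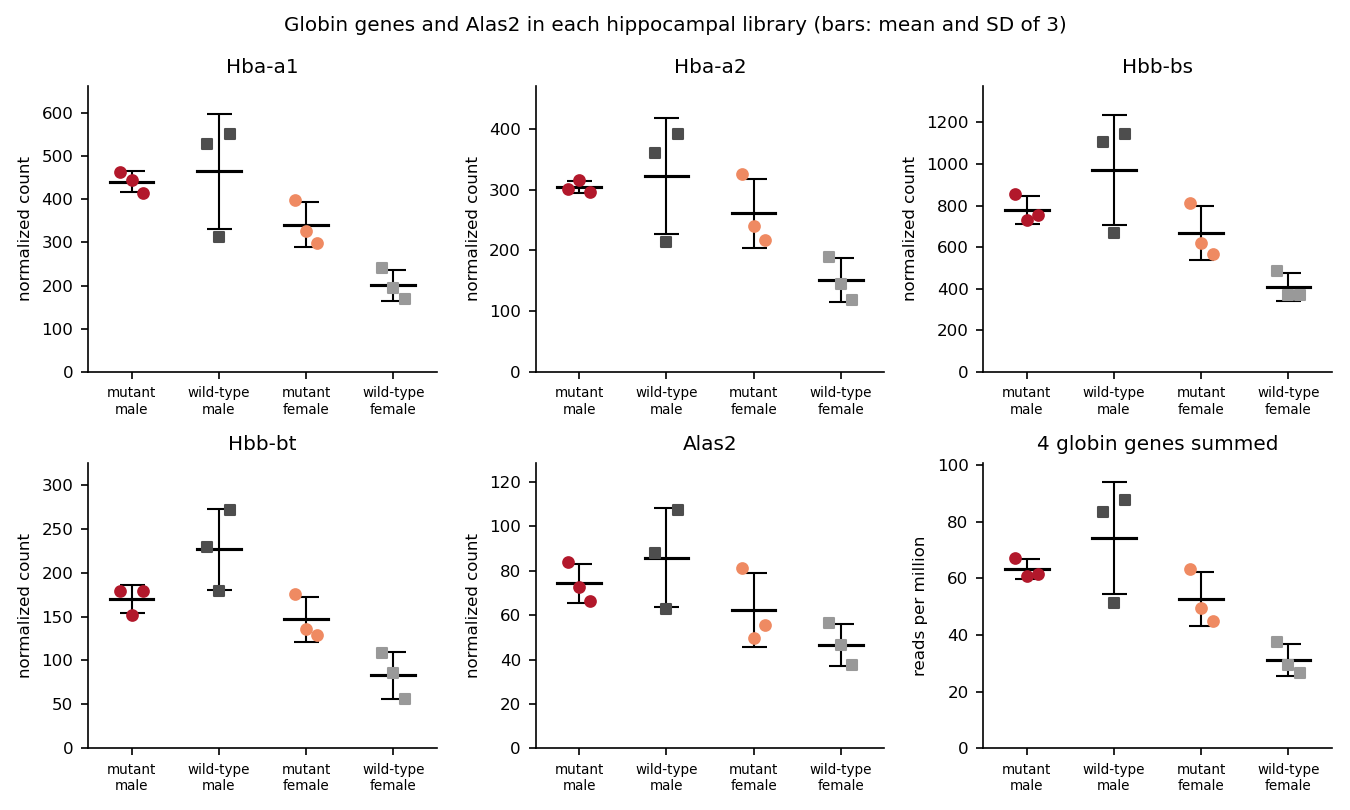
Normalized counts of each gene, and RPM for the 4 globin genes summed, in the 12 libraries (points) by group, with the mean and SD of 3 libraries as bars. Wild-type females have the lowest mean in every panel, at 26.5 to 37.6 RPM of globin reads, and the wild-type males are the most spread, at 51.4 to 87.8.

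All 5 genes had the same order of group means, which was wild-type males, mutant males, mutant females and wild-type females from high to low. Mutant and wild-type males overlapped for every gene. Mutant males and mutant females overlapped for 4 genes but not for Hba-a1. Mutant and wild-type females overlapped for Alas2 only. Per kb of exon, where genes can be compared, Hbb-bs had the highest level, with 1016 ± 87.8 normalized counts per kb in mutant males and 532 ± 87.7 in wild-type females (SD, n = 3 each). On the same scale Hba-a1 had 543 ± 29.8 and 247 ± 44.8, Hba-a2 456 ± 14.8 and 226 ± 53.9, Hbb-bt 242 ± 22.3 and 118 ± 38.0, and Alas2 30.9 ± 3.74 and 19.5 ± 3.94 in mutant males and wild-type females. How reads matching both copies were counted enters the order of the globin genes.

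Proportions among the members were steadier than their levels. Hba-a1 took 58.3% to 60.6% of the α reads in mutant males, 58.5% to 59.4% in wild-type males, 55.1% to 57.8% in mutant females, and 55.8% to 58.6% in wild-type females. A share in 1 library had a 95% Wilson interval of 51.3% to 60.2% in wild-type female 1, as an example, and this interval, which covers counting error only, spans most of the range of the 12 shares. The mean share was 2.06 percentage points higher in males than in females averaged over genotypes (exact permutation p = 0.01, two-sided, 0.18 adjusted over the 24 tests made on proportions). Hbb-bs took 78.8% to 82.8% of the β reads in 11 libraries and 86.9% in wild-type female 3 (Wilson interval 83.7% to 89.5%), where Hbb-bt was at its lowest. No test on the share of Hbb-bs had an adjusted p below 0.70.

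The balance between β and α chains and that between Alas2 and globin each set 1 group apart. Both ratios take it that no reads matching both copies were discarded, which is not known. The β pair was 1.36, 1.16 and 1.31 times the α pair in mutant males, 1.498, 1.61 and 1.501 times in wild-type males, 1.37, 1.34 and 1.35 times in mutant females, and 1.39, 1.35 and 1.48 times in wild-type females. The wild-type males lay above every library of the other groups. Between mutant and wild-type males the difference on the log2 scale was -0.27, and its exact permutation p (two-sided) was 0.1, a floor set by 3 against 3 libraries (adjusted 0.27). Averaged over sexes the difference was -0.16 (exact permutation p = 0.015, adjusted 0.18). Per 100 globin reads there were 4.37 ± 0.33 Alas2 reads in mutant males, 4.36 ± 0.34 in wild-type males, 4.36 ± 0.52 in mutant females and 5.54 ± 0.31 in wild-type females (SD, n = 3 each). The wild-type females, with only 45 to 62 Alas2 reads a library, lay at 5.26 to 5.86, above all other libraries at 3.77 to 4.75. That difference against the mutant females was -0.35 on the log2 scale (mutant minus wild type, exact permutation p = 0.1, adjusted 0.27), and 0 of the 24 tests on proportions had an adjusted p below 0.05.

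**Figure D2:**
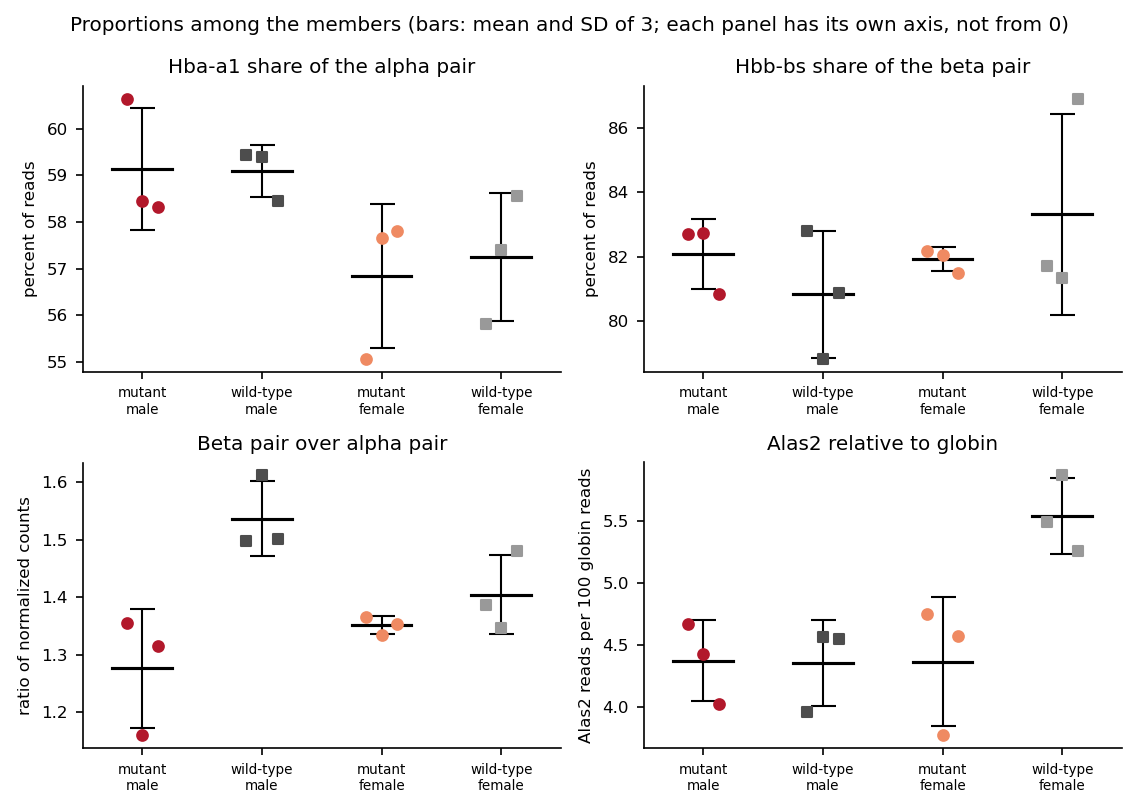
Share of Hba-a1 in the α reads, share of Hbb-bs in the β reads, ratio of the β pair to the α pair, and Alas2 reads per 100 globin reads, in the 12 libraries (points) by group, with mean and SD of 3 libraries. Wild-type males lie above the other groups in the β to α ratio (1.498 to 1.61), and wild-type females in Alas2 relative to globin (5.26 to 5.86).

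The members varied together from library to library. Over the 12 libraries, log2 levels of Hba-a1 and Hbb-bs, which lie on different chromosomes and share no 50-base window, had a Pearson r of 0.98 and a Spearman rho of 0.97 (permutation p = 1e-05 and 2e-05, the first being the smallest that 100000 permutations can give, adjusted 2e-05 and 6.67e-05 over 10 pairs). Without the 2 libraries farthest from the median of Hba-a1, r was 0.96. Alas2 had an r of 0.93 and a rho of 0.93 with Hba-a1 (permutation p = 1e-05 and 0.0001), and an r of 0.94 and a rho of 0.97 with Hbb-bs (permutation p = 2e-05 and 4e-05). Across all 10 pairs r ran from 0.92 to 0.99, from 0.84 to 0.97 without 2 libraries, and rho from 0.81 to 0.97 (permutation p of at most 0.0021, adjusted). Taken as deviations from the group means, which removes any difference between the groups, r was 0.79 to 0.98 (exact permutation within groups, p = 0.00154 to 0.00926). Libraries of the same group therefore also differed jointly. Wild-type male 2 was low for all 5 genes within its group and mutant female 1 was high for all 5. How reads matching both copies of a pair were counted is not known. The correlation within a pair of copies may therefore not compare separate measurements.

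**Figure D3:**
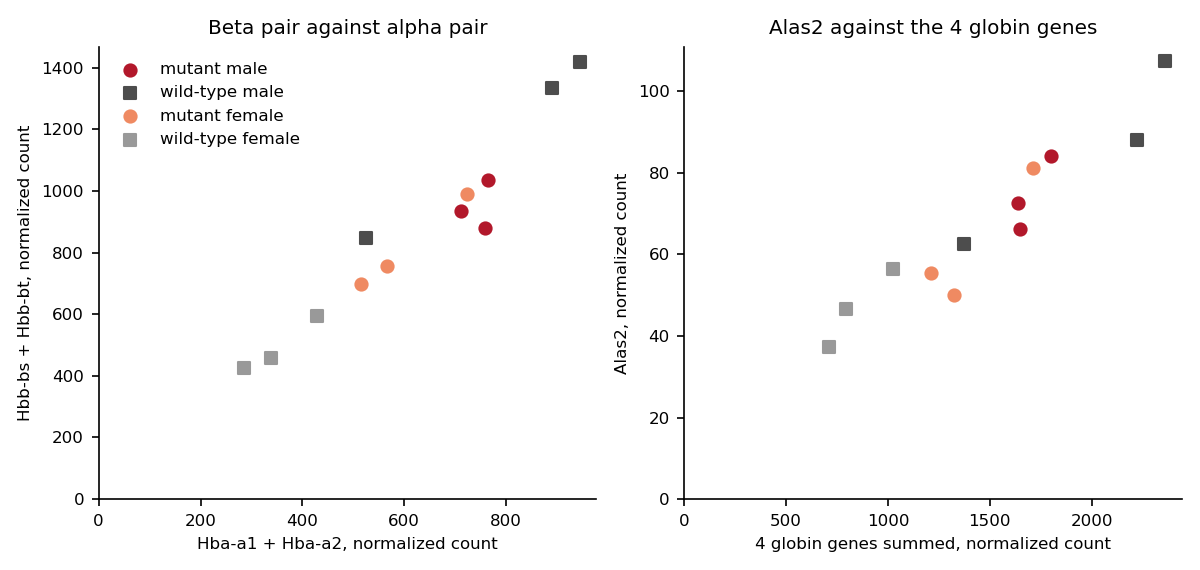
Left, summed normalized counts of Hbb-bs and Hbb-bt against those of Hba-a1 and Hba-a2. Right, Alas2 against the 4 globin genes summed. Each point is 1 of 12 libraries, coloured by group. The points run from wild-type female 3 (710 globin counts, 37.3 Alas2 counts) to wild-type male 3 (2361 and 107).

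The members varied more within groups than most genes. The standard deviation within groups was 0.29 to 0.33 on the log2 scale, against a median of 0.11 over all tested genes, and 80.0% to 84.1% of tested genes varied less. Group differences of the members are to be read against that spread.

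Between mutant and wild-type females, the 4 globin genes had log2 differences of 0.70 to 0.85. The standard errors were 0.19 to 0.23. Hba-a1 differed by 0.77 ± 0.20, or 1.70-fold (95% interval 1.26 to 2.29). Hbb-bt, with the highest value, differed by 0.85 ± 0.22, Hbb-bs by 0.70 ± 0.19 and Hba-a2 by 0.79 ± 0.23. For Alas2 the difference was 0.39 ± 0.24, with an interval of -0.12 to 0.91. After adjustment over 17496 genes, 0 of the 5 passed 0.05 (limma adjusted p = 0.584 for the globin genes and 0.811 for Alas2), in a comparison where the share called was 0%. By unadjusted p, 4 of the 5 were under 0.05, as were 1207 of all tested genes (6.90%). For these 4 genes every mutant female library lay above every wild-type female library, a pattern found in 5.14% of all tested genes, and 0 members lay below, against 5.66%. The exact permutation p was 0.1 for each globin gene, the smallest possible, and 0.3 for Alas2. With edgeR, 0 members passed (adjusted p = 0.525 for each globin gene). DESeq2 called 0 as well, with adjusted p = 0.0670 for Hba-a1 and 0.0787 for Hbb-bs and no adjusted p for the other 3. The median log2 difference was 0.77 over the 5 genes and 0.001 over all genes tested.

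In males the same comparison gave values near or below 0. The log2 differences were -0.03 ± 0.20 for Hba-a1, -0.03 ± 0.23 for Hba-a2, -0.28 ± 0.19 for Hbb-bs, -0.40 ± 0.22 for Hbb-bt and -0.18 ± 0.24 for Alas2. None of the 5 passed (limma adjusted p from 0.571 to 0.978; share called over all genes 0%), and 0 had an unadjusted p under 0.05, against 1807 of all genes (10.3%). EdgeR called 0 members too (adjusted p from 0.572 to 0.932), and DESeq2 gave none of the 5 an adjusted p. For 0 of the 5 members did mutant and wild-type males lie apart, where 8.37% of all genes had every mutant male above every wild-type male and 7.68% below. For Hba-a1 the 95% interval ran from -0.46 to 0.40, which is 0.73-fold to 1.32-fold, and for Hbb-bt from -0.88 to 0.09. The sign of the α genes turned with the choice of libraries. Without wild-type male 3 the values were 0.12 for Hba-a1 and 0.13 for Hba-a2, and without wild-type male 2 they were -0.30 and -0.31.

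Averaged over both sexes, the differences were 0.37 ± 0.14 for Hba-a1, 0.38 ± 0.16 for Hba-a2, 0.21 ± 0.14 for Hbb-bs, 0.23 ± 0.16 for Hbb-bt and 0.11 ± 0.17 for Alas2. By unadjusted limma p, 2 of the 5 (Hba-a1 and Hba-a2) were under 0.05, as were 1552 of all genes (8.87%). After adjustment 0 of the 5 passed (limma adjusted p = 0.469 to 0.886), where 0.00572% of all genes were called. EdgeR and DESeq2 called 0 members. No exact permutation p was below 0.1 (0.105 for Hba-a1 to 0.605 for Alas2, where 400 arrangements within the sexes allow 0.005).

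The male genotype effect minus the female one was -0.80 ± 0.28 for Hba-a1, -0.82 ± 0.32 for Hba-a2, -0.98 ± 0.27 for Hbb-bs, -1.25 ± 0.32 for Hbb-bt and -0.57 ± 0.34 for Alas2. By unadjusted limma p the 4 globin genes were under 0.05, as were 1373 of all genes (7.85%). After adjustment 0 of the 5 passed (adjusted p = 0.619 for each globin gene and 0.727 for Alas2; share called 0%), and edgeR and DESeq2 called 0 as well. A difference between the sexes in the genotype effect was therefore not established for any member.

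**Figure D4:**
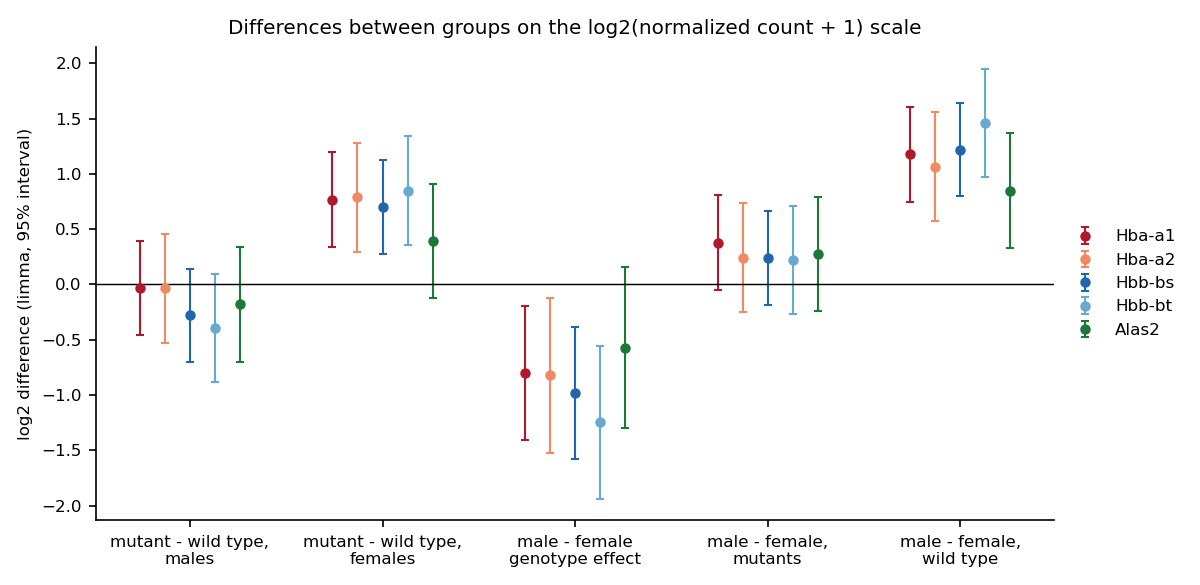
Log2 differences of the 5 genes with 95% limma intervals for 5 comparisons: the genotype effect in each sex, the male minus the female genotype effect, and the sex effect in each genotype. The female genotype values of the globin genes lie at 0.70 to 0.85, and the wild-type sex effects at 0.85 to 1.47 for all 5 genes. The comparisons share libraries, so their values are not independent.

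Males were compared with females next, across genotypes and, as a comparison added after the values were seen, within each genotype. Averaged over genotypes, all 5 genes had a higher mean in males, with log2 differences of 0.78 ± 0.14 for Hba-a1, 0.65 ± 0.16 for Hba-a2, 0.73 ± 0.14 for Hbb-bs, 0.84 ± 0.16 for Hbb-bt and 0.56 ± 0.17 for Alas2. In fold terms, Hba-a1 was 1.71 times as high in males (95% interval 1.39 to 2.12). All 5 had an unadjusted limma p under 0.05 (1.17e-04 for Hba-a1 to 0.00560 for Alas2), as did 6.64% of all genes, and 0 of the 5 passed after adjustment (adjusted p = 0.119 to 0.545), where 0.0686% of all genes were called. Permuting sex within each genotype gave exact p-values of 0.005 for Hba-a1, 0.01 for Hbb-bt, 0.015 for Hbb-bs, 0.02 for Hba-a2 and 0.025 for Alas2, with 0.005 the smallest possible. The call depended on the tool. EdgeR called 0 members (adjusted p = 0.097 for Hba-a1) and 12 genes over the whole table. DESeq2 called the 4 globin genes but not Alas2 (adjusted p = 0.437), among 48 genes called. Without wild-type male 2, Hba-a1 (limma adjusted p = 0.00338) and Hbb-bs (0.00682) passed, among 15 genes called. Without wild-type female 1, Hbb-bt did (0.0387), also among 15. For all 5 genes these were the lowest wild-type male and the highest wild-type female library. Leaving either out widens the difference by construction, so these calls are no added support.

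Within the wild type, the male minus female differences were 1.18 ± 0.20 for Hba-a1, 1.07 ± 0.23 for Hba-a2, 1.22 ± 0.19 for Hbb-bs, 1.47 ± 0.22 for Hbb-bt and 0.85 ± 0.24 for Alas2. Hbb-bt was 2.76 times as high in wild-type males as in wild-type females (95% interval 1.97 to 3.87). Every wild-type male library lay above every wild-type female library for all 5 genes, as for 5.83% of all tested genes (the opposite order held for 6.45%), and the exact permutation p was 0.1 for each, the smallest possible. The limma adjusted p was 0.0511 for Hbb-bt, 0.0614 for Hbb-bs, 0.0922 for Hba-a1, 0.398 for Hba-a2 and 0.751 for Alas2, so 0 of 5 passed, where 0.0457% of all genes were called. By p-value, Hbb-bt, Hbb-bs and Hba-a1 ranked 9, 11 and 12 of 17496, after the 8 genes called, which all lie on the X or Y chromosome. The threshold was crossed under other settings. EdgeR called Hbb-bt (adjusted p = 0.0447) among 10 genes called over the whole table, and DESeq2 called all 4 globin genes among 23. Summing the reads of the copies gave the β pair a difference of 1.26 ± 0.19 (limma adjusted p = 0.0425) and the α pair 1.13 ± 0.21 (0.176), with 9 genes called. Without wild-type male 2, the 4 globin genes passed (limma adjusted p from 0.00205 to 0.0458), among 13 genes called. Without wild-type female 1, Hbb-bt did (0.0120), among 10. These were the lowest wild-type male and the highest wild-type female library in all 5 genes. Their removal widens the difference by construction, so the calls made without them are no added support.

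Within the mutants the male minus female differences were 0.38 ± 0.20 for Hba-a1, 0.24 ± 0.23 for Hba-a2, 0.24 ± 0.19 for Hbb-bs, 0.22 ± 0.22 for Hbb-bt and 0.28 ± 0.24 for Alas2. By limma 0 of the 5 passed (adjusted p = 0.716 to 0.839), where 0.0629% of all genes were called, and 0 had an unadjusted p under 0.05. EdgeR and DESeq2 called 0 as well. All mutant male libraries were above all mutant female libraries for Hba-a1 alone, a pattern found in 6.86% of all genes, and for 0 members below, against 5.85%. Whether the sex difference itself differed between genotypes is the same contrast as the difference of the genotype effects above, in which 0 members passed. The wild-type female libraries enter the female genotype comparison and the wild-type sex comparison alike, so these 2 sets of values are not separate evidence.

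Other genes of the heme pathway did not pass the test in these comparisons. The list of heme synthesis, heme breakdown and iron uptake held 19 genes besides Alas2, all tested, and 0 passed in either direction in any of the 7 comparisons. In females 10 were higher and 9 lower in mutants, with a median log2 difference of 0.004, and 1 had an unadjusted p under 0.05. Tfrc, the transferrin receptor, had 4031 ± 186 normalized counts in mutant males, 3672 ± 161 in wild-type males, 4063 ± 76.0 in mutant females and 4099.5 ± 168 in wild-type females (SD, n = 3 each). Fech encodes ferrochelatase, which inserts the iron that completes heme. Its log2 difference was -0.01 between mutant and wild-type females and -0.05 between wild-type males and females. In the same comparisons Cpox (coproporphyrinogen oxidase) had -0.09 and -0.09, and the iron transporter Slc11a2 had 0.01 and 0.03. Alas1, the housekeeping counterpart of Alas2, was named after its values were seen. It had 1418 ± 101 normalized counts in mutant males, 1499.9 ± 26.4 in wild-type males, 1466 ± 58.9 in mutant females and 1401 ± 82.6 in wild-type females, with a log2 difference of 0.07 between mutant and wild-type females.

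Other globin genes had no reads, were under the filter or did not pass the test. Embryonic Hba-x and Hbb-bh1, and Hbb-bh2 and Hbb-bh0 of the β cluster, had 0 reads in the 12 libraries, and embryonic Hbb-y had 9 in all. Of the 10 other globin genes 3 were tested and 0 passed in any comparison. Cygb, cytoglobin, had 1238 ± 126 normalized counts in mutant males, 1258 ± 59.0 in wild-type males, 1161 ± 77.1 in mutant females and 1247 ± 19.99 in wild-type females. Ngb, neuroglobin of neurons, had 98.5 ± 66.0, 58.7 ± 11.4, 64.5 ± 9.87 and 53.7 ± 17.8 in the same groups. Hbq1b, the θ-globin gene between the α copies, had 12.6 ± 1.496, 13.6 ± 4.58, 13.4 ± 4.27 and 11.9 ± 2.12, without the order of groups seen in its neighbours. Mb, the myoglobin gene, was under the filter and not tested, with 121 reads in all. It had 10.01 ± 2.44 normalized counts in mutant males, 10.6 ± 0.240 in wild-type males, 4.79 ± 2.43 in mutant females and 13.4 ± 1.41 in wild-type females. The female groups did not overlap (3.39 to 7.598 in mutants and 11.8 to 14.4 in wild type), with mutants lower. That pattern was found in 5.66% of all tested genes, and for Mb it rested on few reads.

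Most other markers of the red cell lineage had few reads. Of 20 erythroid markers 19 were in the table and 5 passed the filter, and 0 passed the test in any comparison. The most abundant were Tspan33, Epor (the erythropoietin receptor), Tal1 (a transcription factor of blood and vessel cells) and Icam4 (a red cell adhesion protein). In females their log2 differences, mutant minus wild type, were 0.12, -0.17, 0.19 and 0.05, and several of these genes are known in other cells too. The other 14 together had 13 to 38 reads a library. Among them, named after their values were seen, were the red cell anion exchanger gene Slc4a1 (54 reads in all 12 libraries) and the erythroid transcription factors Klf1 (58 reads) and Gata1 (3 reads). The 14 genes summed averaged 27.6 ± 7.63 normalized counts in mutant males, 25.5 ± 9.999 in wild-type males, 21.9 ± 8.70 in mutant females and 25.5 ± 8.80 in wild-type females (SD, n = 3 each), so every group mean lay within 1 SD of the others.

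Markers of white cells and platelets were mostly below the filter. None of the 10 granulocyte markers reached the filter, and their summed normalized counts ran from 11.3 to 30.4 a library. Mpo, Lcn2, S100a9 and Retnlg had the most, with 86, 47, 35 and 16 reads in all. Of 12 lymphocyte markers 2 were tested (Ighm and Trac, with Cd79a and Cd79b next in level), and of 7 platelet markers 3 were (Itga2b, Gp1ba and Pf4, with Gp9 next). None passed in any comparison. Pf4, platelet factor 4, had 25.5 ± 4.20 normalized counts in mutant males, 14.9 ± 6.90 in wild-type males, 21.5 ± 4.08 in mutant females and 11.7 ± 2.32 in wild-type females (SD, n = 3 each). Its log2 difference averaged over sexes, mutant minus wild type, was 0.81 with a standard error of 0.22 (limma adjusted p = 0.340). Gp1ba, of the platelet von Willebrand factor receptor, differed by -0.42 (limma adjusted p = 0.359), so the platelet genes did not share a direction.

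Markers of vessel walls and meninges also had higher means in mutant than in wild-type females. In that comparison 16 of 16 endothelial markers had a positive difference (median log2 0.17; 6 with an unadjusted p under 0.05), as did 12 of 12 pericyte and smooth muscle markers (median 0.55; 3 under 0.05) and 12 of 12 meningeal fibroblast markers (median 1.28; 11 under 0.05). None passed after adjustment. Of all 17496 tested genes, 8834 had a positive difference there and 6.90% an unadjusted p under 0.05. The summed fibroblast markers were 16975, 24193 and 12296 in mutant females and 5643, 6235 and 11533 in wild-type females, so those groups did not overlap. Col1a2, a collagen of fibroblasts, differed by 1.38 ± 0.38 between mutant and wild-type females and Igf2, a growth factor, by 1.32 ± 0.40 (limma adjusted p = 0.584 for each). Among endothelial markers the most abundant were Slco1a4, Itm2a, Flt1 and Abcb1a, with log2 differences of 0.12, 0.29, 0.11 and 0.15 in females, mutant minus wild type. Rgs5, Vtn, Pdgfrb and Cspg4 led the pericyte and smooth muscle list, with 0.07, 0.76, 0.34 and 0.13. Dcn and Col1a1, the other leading fibroblast markers, differed by 0.86 and 1.26. Mutant female 2 was the highest of all 12 libraries in endothelial, pericyte and fibroblast markers, while mutant female 1 was the highest mutant female in all 5 blood genes. Correlations of single fibroblast markers with the globin sum ran from 0.06 for Foxc1 to 0.39 for Col1a1. Those of endothelial markers ran from -0.49 for Cldn5 to 0.19 for Itm2a. These are descriptions over 12 libraries, and the genes were named after their values were seen. In the comparison of wild-type males with wild-type females, 12 of 12 fibroblast markers were higher in males (median 0.53), endothelial markers were split, 8 higher and 8 lower, and 4 of 12 pericyte and smooth muscle markers were higher and 8 lower (median -0.05). The part of these cells in the globin values was not tested.

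The 12 choroid plexus markers had a median log2 difference of 1.65 in females and -3.81 in males, mutant minus wild type, with 0 passing in either. By unadjusted limma p, 12 of the 12 were under 0.05 in males, all lower in mutants, as were 10.3% of all genes in either direction. In females 0 were, against 6.90% of all genes. Ttr, which encodes the carrier protein transthyretin, ranged from 269 to 143001 normalized counts among mutant males alone. Enpp2, Kl and Clic6 came next in level, with log2 differences of 0.97, 1.02 and 2.16 in females. Mutant males 2 and 3, with hardly any choroid plexus transcripts, had 60.9 and 61.5 RPM of globin reads, and mutant male 1 had 67.3. Among wild-type females, the library lowest in the summed markers (7150, female 1) had the most globin reads (37.6 RPM). The highest (245133, female 3) had the least (26.5). When the 3 libraries low in these markers were left out, the female genotype differences were 0.90 for Hba-a1, 0.97 for Hba-a2, 0.83 for Hbb-bs, 1.07 for Hbb-bt and 0.53 for Alas2, with 0 passing. Those fits leave 1 mutant male and 2 wild-type females, which are taken to vary like the other groups. The part of choroid plexus in the globin values was not tested.

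**Figure D5:**
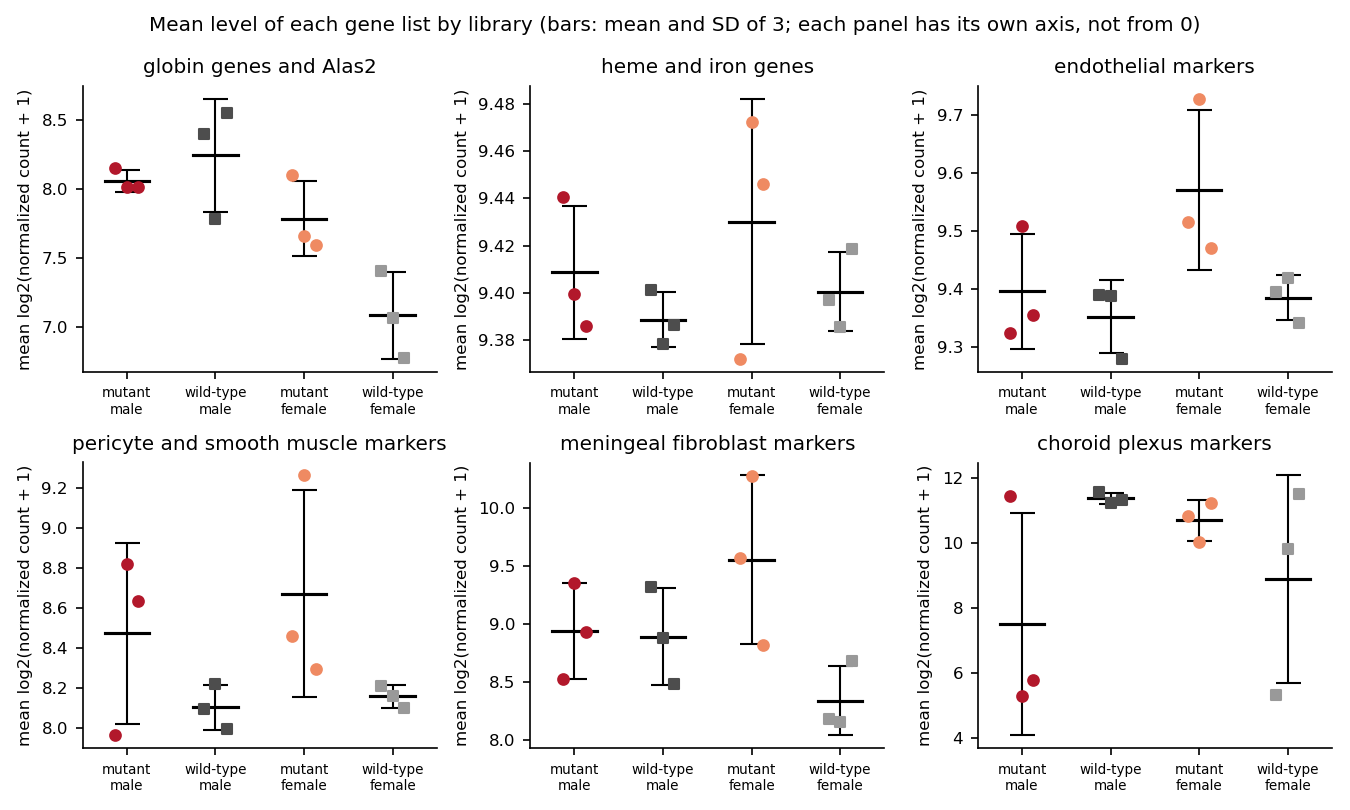
Mean log2(normalized count + 1) of 6 gene lists in the 12 libraries (points) by group, with mean and SD of 3 libraries; each panel has its own axis. The globin genes and Alas2 are lowest in wild-type females (6.78 to 7.41), heme and iron genes lie between 9.37 and 9.47 in all libraries, mutant female 2 is highest in the vessel and fibroblast lists, and 3 libraries stand far below the rest in choroid plexus markers.

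Genes around the members were also tested. Within 200 kb of a member, 13 other genes were tested, 8 near the α copies, 0 near the β copies, where mostly olfactory receptor genes lie, and 5 near Alas2. None passed in any comparison. Their log2 differences were -0.11 to 0.43 between mutant and wild-type females and -0.12 to 0.14 between wild-type males and females. Nprl3, which houses the distal enhancers of the α-globin cluster, differed by -0.09 in females and Rhbdf1 by 0.27, with an unadjusted limma p under 0.05 as the only neighbour of the 13. The other neighbours of the α copies were Gm12108, Snrnp25, Mpg, Hbq1b, Sh3pxd2b and Ubtd2, and those of Alas2 were Tmem29, 3110067C02Rik, Apex2, Pfkfb1 and Tro.

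By Pearson r, no other tested gene followed the globin sum as closely as the members followed each other. Each member had a Pearson r of 0.95 to 0.98 with the sum of the other members over the 12 libraries. For a globin gene that sum includes its near-identical copy. By Spearman rho this gap was absent, as Csgalnact2 had a rho of 0.96 with the globin sum, against 0.81 to 0.97 for the member pairs. The 10 non-member genes with the highest r with the globin sum were Csgalnact2 (0.89), Pif1 (0.87), Zfp553 (0.87), Trim33 (0.86), Arg2 (0.85), Dusp1 (0.82), Gm16279 (0.80), Gm12932 (0.80), Usp10 (0.79) and Klf15 (0.79), picked as the highest of all tested genes and so a description only. They lie on other chromosomes than Alas2, and Zfp553 alone shares chromosome 7 with the β copies. The level of the gene most alike moved little. Csgalnact2 had 509 ± 13.5 normalized counts in mutant males, 523 ± 22.1 in wild-type males, 495 ± 13.2 in mutant females and 477 ± 5.55 in wild-type females.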

How the data were processed

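Hippocampal RNA of 12 libraries was sequenced after TruSeq v2 preparation, which keeps no strand, per the labels' protocols. Trimmomatic 0.35, HTSeq, TopHat2 2.1.0 and DESeq2, with build GRCm38, are listed without their roles, per the submitters' processing notes. The deposited signal values are read counts that the authors divided by 1 size factor per library, as the values themselves show: all were whole multiples of 1 step per library (0.807 to 1.13 normalized counts per read, tolerance 1e-06), which gave back the reads.

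The members, gene lists and comparisons were chosen with earlier results of these data known, and the sex effects within a genotype were added after seeing the values. Groups came from the sample titles. Values were transformed as log2(value + 1), which understates changes of low genes. Genes averaging 10 or more (17496) were fitted with limma 3.58.1 (R 4.3.3, trend, 4 group means) and adjusted with the Benjamini-Hochberg method at 0.05. Permutation tests were exact and two-sided unless stated. Alternatives were edgeR 4.0.16 and DESeq2 1.42.0 on recovered reads, upper-quartile factors, pseudocounts 0.5 and 5, no filter, a minimum of 50, a replicate block, leaving out each library, leaving out the 3 libraries lowest in choroid plexus markers, fitting only the sex compared, and copies summed. The fit was tested on simulated data. From each list the up to 4 most abundant measured genes are named, with exceptions stated where they stand, and with neighbours within 200 kb and the 10 genes most alike. Symbols and positions came from GENCODE M21 (45143 of 46078 IDs matched). Python 3.11.15 with pandas 2.3.3 and scipy 1.17.1 was used. No pair of libraries in a group lay within sampling noise (chi-square per degree of freedom 3.38 to 30.0), and 0 columns belonged to other samples.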

Additional observations from a re-analysis of the deposited data

How the results depend on the processing

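Of 752 member values under alternatives, 745 kept their direction, and the 7 that reversed were all mutant minus wild-type differences in males. When the 3 libraries with few choroid plexus transcripts were left out, these were 0.041 for Hba-a1 and 0.000789 for Alas2. Leaving out 1 library at a time gave -0.30 to 0.12 for Hba-a1 and -0.31 to 0.13 for Hba-a2. Members past 0.05 for the sex effect averaged over genotypes were 0 with limma, 4 with DESeq2, 1 with the replicate block, and 0 to 2 leaving out 1 library. For the sex effect in wild type they were 0 with limma, 1 with a pseudocount of 5, 2 with no filter, 1 with edgeR, 4 with DESeq2, 1 with the block, 1 without the 3 libraries, and 0 to 4 leaving out 1 library. For the other 5 comparisons members past 0.05 were 0 under every alternative run.

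Genes past 0.05 over the whole table moved more. In males there were 0 with limma, 35 with DESeq2, 12 without the 3 libraries and 0 to 1 leaving out 1 library. In females they were 0, 11, 1 and 0 to 1. Averaged over sexes they were 1 with limma (Chd8), 0 with no filter, with upper-quartile factors and with the block, 75 with DESeq2, 82 without the 3 libraries and 0 to 8 leaving out 1 library. For the difference of the genotype effects they were 0 with limma, 3 with DESeq2, 2 without the 3 libraries and 0 to 1. For the sex effect they were 12 averaged (48 with DESeq2, 34 without the 3 libraries), 11 in mutants (26 and 19), and 8 in wild type (13 with no filter, 23 with DESeq2, 8 to 13 leaving out 1 library). The cause was not tested.

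Between libraries of the same number, correlations of deviations ran from -0.581 to 0.287, without a common sign. With deviations from means of 3 libraries, these values cannot show whether the numbers pair the samples. With the replicate block, Hbb-bs passed in both sex effects (limma adjusted p = 0.0341 averaged and 0.0124 in wild type), among 16 and 9 genes called. With 3 libraries a group and a within-group spread of 0.29 to 0.33 (log2), member differences had standard errors of 0.19 to 0.24 within a sex. Single copies of a globin pair also depend on how reads matching both copies were counted. Where a fit leaves 1 library in a group, that library is taken to vary like the other groups.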
